A study of Homo sapiens with 3 samples.

Results

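The enzymes described here write or erase methyl groups on histone lysines and on DNA. Their genes were taken by name from the deposited table, which lists 58302 genes, and all 48 names were found. They comprise 27 histone methyltransferases and Polycomb core proteins, 15 histone demethylases, 3 DNA methyltransferases and 3 TET dioxygenases. The RNA came from the human colorectal cancer line HCT116. DUOX2 siRNA 1 and DUOX2 siRNA 2 are small interfering RNAs of different sequence, labelled as given to cells to lower DUOX2, which produces hydrogen peroxide from NADPH. The control siRNA is another sequence. Each siRNA has 1 library. All 3 groups share the cell line, and the labels give no dose, time or transfection reagent. They do not say if the libraries are from separate cultures, so the spread between the DUOX2 siRNA libraries holds sequence differences and technical variation together.

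Histone methyltransferases move a methyl group from S-adenosylmethionine to a lysine. Marks on H3K4, H3K36 and H3K79 go with transcribed genes, while H3K9, H3K27 and H4K20 methylation go with repression and compaction. LSD enzymes remove methyl groups with a flavin cofactor, and JmjC enzymes do so with iron, oxygen and alpha-ketoglutarate. DNMT1 copies DNA methylation at replication, DNMT3A and DNMT3B set it anew, and TET enzymes oxidise 5-methylcytosine. HCT116 has long served as a model for DNA methylation in colorectal cancer.

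The antisense strands, whose bases 2 to 8 (the seed, in capitals) guide target choice, are shown because they are the only labelled difference between the libraries. They are written without their overhangs, 5′ to 3′.
DUOX2 siRNA 1: aACCACUAuguuguccucc
DUOX2 siRNA 2: aUGAAGGAucgcaucaugg
control siRNA: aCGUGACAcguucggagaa
The sense strands of siRNA 1 and siRNA 2 matched a DUOX2 transcript over all 19 bases, and the control siRNA differed from every DUOX2 transcript at 7 or more. No sense strand matched a transcript of the 48 genes over all 19 bases, and matches of the seed alone were not searched. The fewest mismatches were 4 for siRNA 1, to KDM4A, 5 for siRNA 2, to KDM7A, and 3 for the control siRNA, to NSD2.

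Total counts were 19130768 with siRNA 1, 18832672 with siRNA 2 and 17589502 in the control library. The 10 most abundant genes took 11.0%, 8.22% and 7.97% of them in the same order. DUOX2 (ENSG00000140279) had 2 counts with siRNA 1, 0 with siRNA 2 and 2 in the control. All lie under 3 counts, the limit that a count of 0 allows (0.157 to 0.171 CPM, the count scaled to the library total), so the target gives no check of the labels. The labels' protocol speaks of retinas. The retina markers CRX, SAG and RPE65 had 0 counts in every library, while RLBP1 had 76 and 104 counts with the siRNAs against 136 in the control. Of 11 colorectal markers 2, CDX1 and CEACAM5, had 0 counts, and the list summed to 62823 and 91717 counts with the siRNAs against 94082 in the control. Of the 7 tested, EPCAM was above the control with both siRNAs, KRT18, KRT19, VIL1 and CDX2 were below it, and KRT8 and CDH1 differed in sign. KRT19 had 6102 and 8563 counts with the siRNAs against 16482 in the control, and EPCAM 12181 and 11926 against 7646. The part of these markers in the results below was not tested. Of 9 immune, endothelial and fibroblast markers 5, among them PTPRC and PECAM1, had 0 counts, and the list summed to 73 and 82 counts with the siRNAs against 79 in the control.

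All 48 genes passed the filter on low counts, against 17263 genes of the whole table. Their median level in FPKM (fragments scaled to transcript length and library total, which allows comparison between genes) was 4.04 with siRNA 1, 4.16 with siRNA 2 and 4.92 in the control. Over all genes tested it was 2.31, 2.48 and 2.66 in the same order. In 44 of the 48 the level was at least 1 FPKM in every library. Their counts summed to 0.408%, 0.422% and 0.423% of the libraries.

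EZH2, the methyltransferase of Polycomb repressive complex 2 (PRC2), had the highest level in every library, with 26.6 and 23.9 FPKM with the siRNAs against 21.8 FPKM in the control. With siRNA 1 it was followed by SUZ12, another PRC2 subunit, at 18.2 FPKM, and the LSD demethylase KDM1A, at 17.9 FPKM. In the control it was followed by DNMT1, at 15.3 FPKM, and KDM1A, at 14.5 FPKM. The lowest levels were those of TET1, KMT5C, KDM2B and KDM4B, all under 1 FPKM in each library. The order of neighbours cannot be tested, since the control has 1 library.

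**Figure D1:**
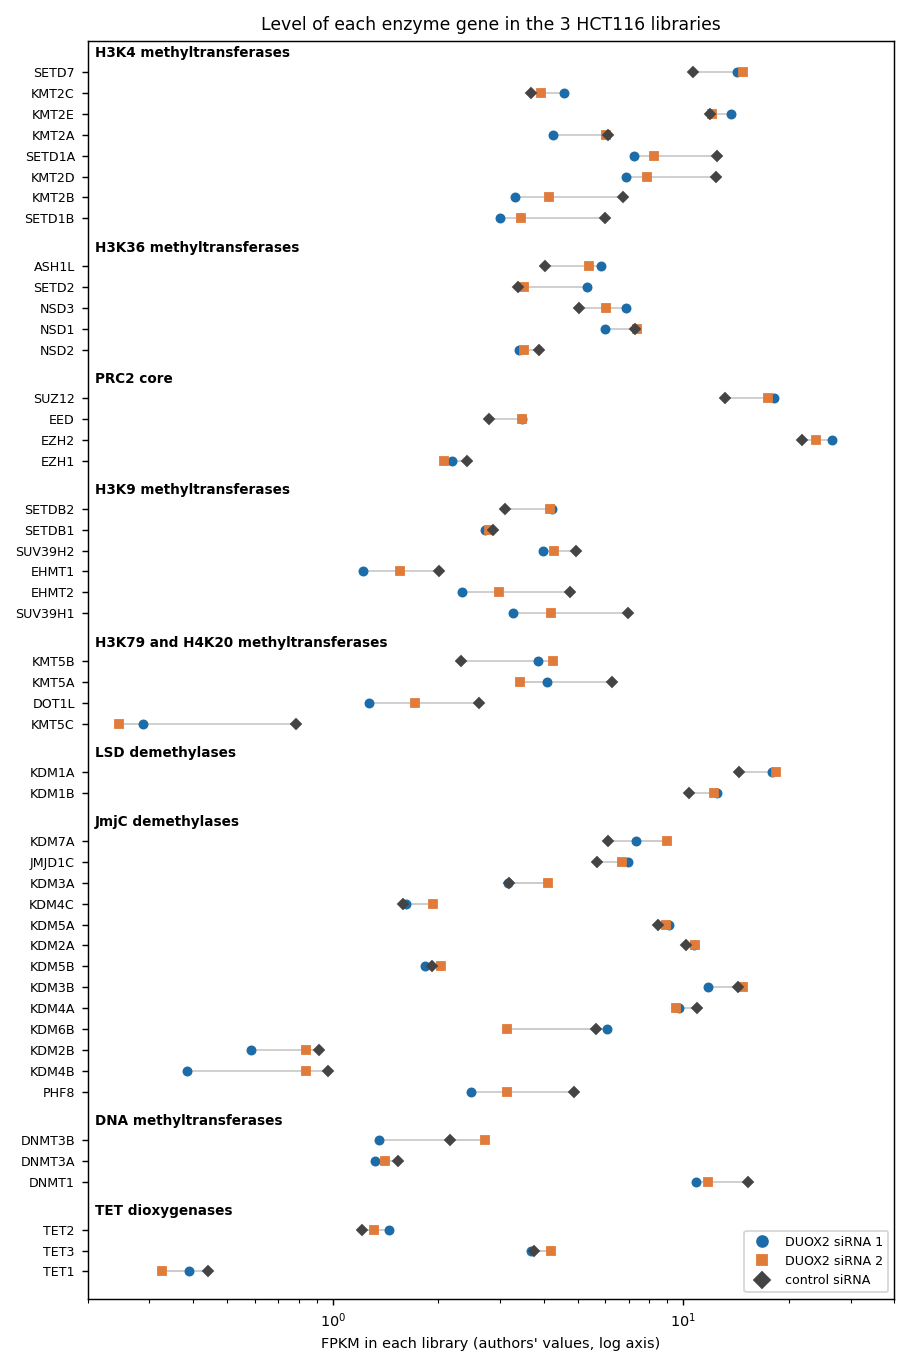
Level of the 48 enzyme genes in FPKM on a log axis, 1 row a gene, grouped by role. Circles are DUOX2 siRNA 1, squares DUOX2 siRNA 2 and diamonds the control siRNA, each a single library, and the grey line spans the 3 values. Levels run between 0.245 FPKM for KMT5C with siRNA 2 and 26.6 FPKM for EZH2 with siRNA 1.

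No enzyme gene passed the test of the DUOX2 siRNA libraries against the control. With edgeR's quasi-likelihood test and Benjamini-Hochberg adjustment over all genes, 0 of 48 had an adjusted p under 0.05, where 10 of 17263 genes (0.0579%) did. The smallest adjusted p among them was 0.123, for KMT5C. In bulk RNA, fewer cells that express a gene and less RNA per cell cannot be told apart. An adjusted p under 0.10 was also reached by 0 of 48 (0.365% of all genes). DESeq2 called 0 of the 48, against 3.28% of all genes, but it gave no adjusted p for KMT5C and TET1. The smallest DESeq2 adjusted p among the others was 0.056, for KMT5B. With limma 0 of the 48 were called, and 0 of all genes. At an unadjusted edgeR p under 0.05 the count was 14 of 48, 4 higher and 10 lower with the siRNAs, against 26% of all genes tested (11.5% higher, 14.5% lower). Under total count scaling it was 11, 1 higher and 10 lower. The share of all genes was not counted under that scaling, which moved their median log2 fold change from 0.01 to -0.09. The same sign with both siRNAs was seen in 23 genes above the control (41.9% of all genes) and 20 below it (41.6% of all genes), while 5 differed in sign between the siRNAs. The shares, 47.9% and 41.7%, lie near those of all genes.

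Median log2 fold changes over the 48 were 0.03 with siRNA 1 and 0.08 with siRNA 2, against 0.02 and -0.01 over all genes tested. From the edgeR fit the medians were -0.01 for the 48 and 0.01 for all genes, so the sign of the median depends on the measure. A single enzyme gene, KMT5C, was at least 2-fold from the control with both siRNAs, against 9.05% of all genes (4% higher, 5.05% lower). With siRNA 1 alone 2 enzyme genes, KMT5C and KDM4B, were at least 2-fold from the control, against 20.4% of all genes. With siRNA 2 alone it was KMT5C, against 13.4% of all genes. The enzyme genes have a higher median level than all genes tested (4.92 against 2.66 FPKM in the control), so these shares compare genes of unlike level. The part of level in them was not tested. Differences from the control were larger in size with siRNA 1 than with siRNA 2 in 35 of the 48 (72.9%), against 64.4% of all genes tested.

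**Figure D2:**
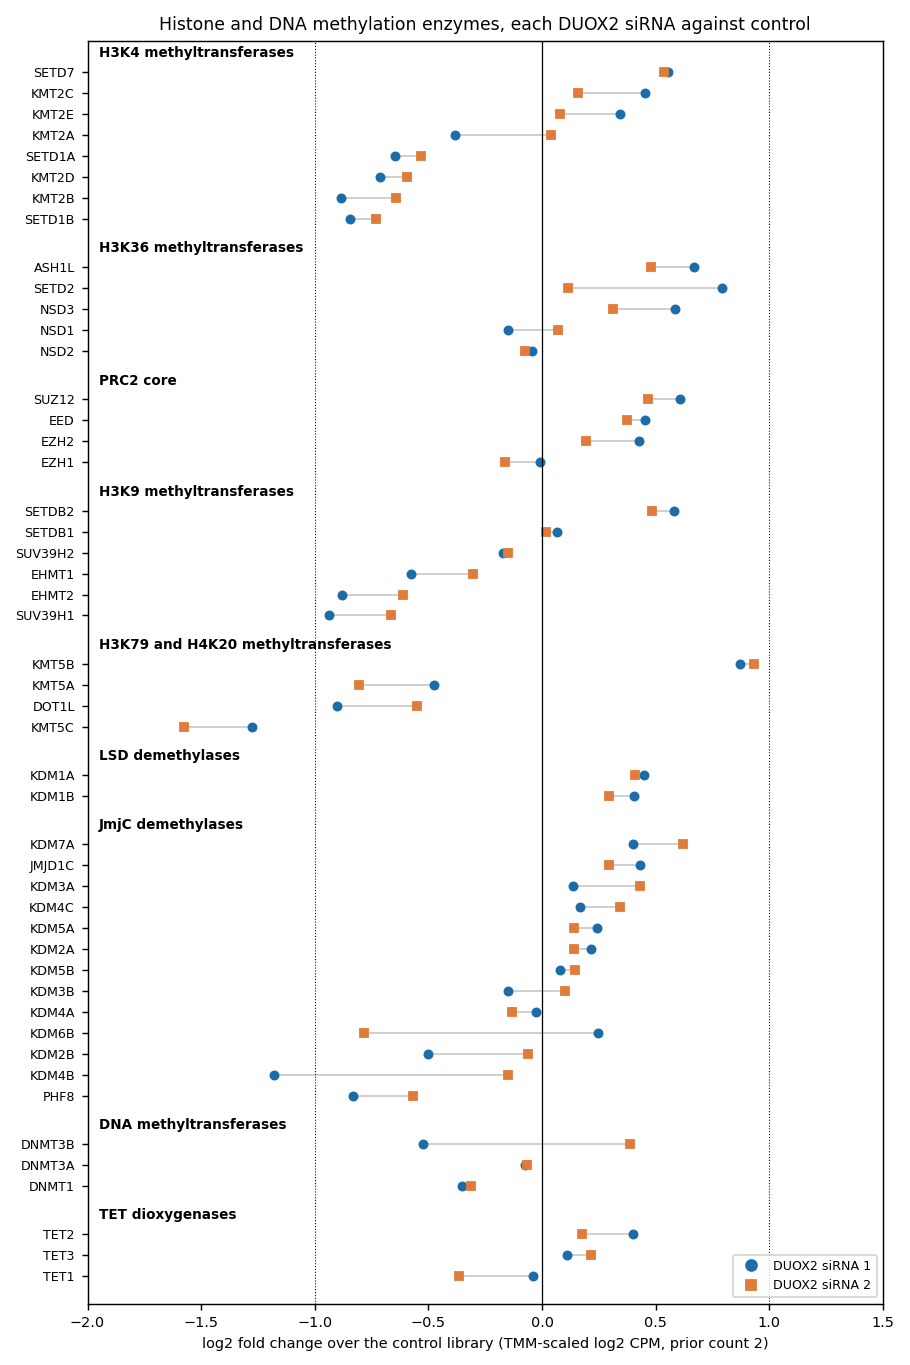
Log2 fold change of each enzyme gene over the control library, grouped by role, with siRNA 1 as circles and siRNA 2 as squares. Dotted lines mark a 2-fold change. Each point compares 1 library with 1 library, so no error bar is drawn. KMT5C is the gene with both points beyond a dotted line, at -1.28 and -1.58.

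The fold changes followed the base composition of the transcripts, and this stands beside every group below. Across the 48 genes Pearson's r between the edgeR log2 fold change and the GC content of the longest transcript was -0.83 (Spearman's rho -0.81). Over 17209 genes tested with a known GC content it was -0.53 (rho -0.69). These are descriptions across genes that share the same 3 libraries, and genes are not independent replicates. Of 19 enzyme genes under 45% GC, 17 were above the control by the edgeR value (median 0.36), where all 6227 genes in that range had a median of 0.43. All 12 at 55% GC or more were below it (median -0.68), where the 4921 genes of that range had a median of -0.69. Between these limits the median was -0.03 over 17 enzyme genes and -0.02 over 6061 genes. Within each range the median of the enzyme genes thus lay within 0.1 of the median of all genes. Single enzyme genes lay farther off, from -0.20 to 0.90 under 45% GC and from -1.46 to -0.18 at 55% or more.

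**Figure D3:**
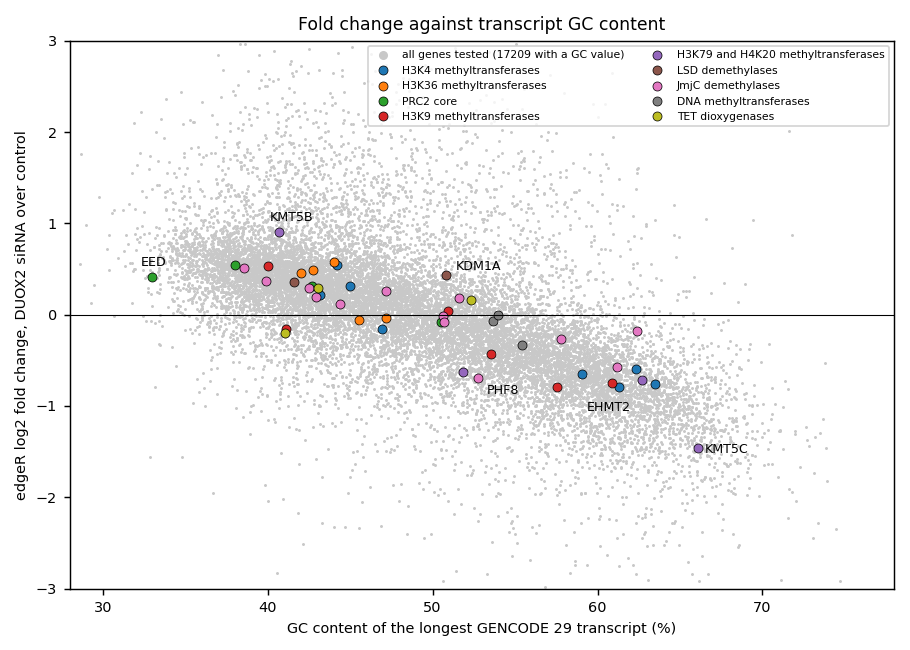
The edgeR log2 fold change of the DUOX2 siRNA libraries over the control, against the GC content of the longest transcript in percent. Grey points are all genes tested and coloured points the 48 enzyme genes by role. On the vertical axis 141 genes lie beyond the limits drawn, and 5 lie beyond those of the horizontal axis. KMT5C sits at the GC-rich end at -1.46 and KMT5B at 40.7% GC at 0.90.

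Subtracting the GC trend of all genes made the size of the fold change smaller in 33 of the 48 (68.8%, against 70.1% of all genes) and turned the sign of 19 (39.6%, against 28.8% of all genes). At an unadjusted p under 0.05 it left 3 of 48, against 10.1% of all genes. These were KMT5B at 0.50, KDM1A at 0.53 and SUV39H2 at -0.55. No gene of the table had an adjusted p under 0.05 in that edgeR fit. In the text below, the value without the GC trend stands beside the measured edgeR value. What sets the trend was not tested.

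**Figure D4:**
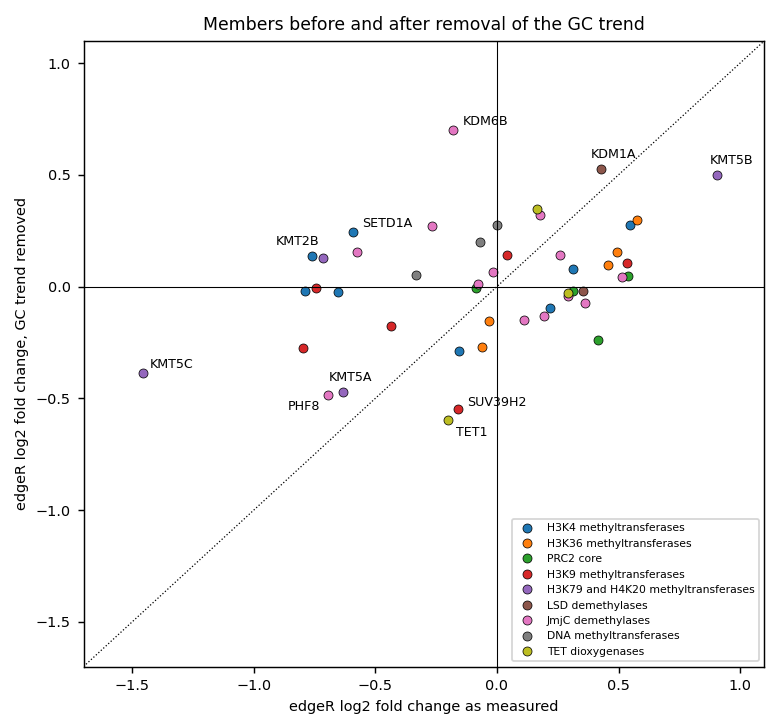
Each enzyme gene's edgeR log2 fold change as measured (horizontal) and with the GC trend of all genes removed (vertical), coloured by role. The dotted diagonal marks equal values. KMT2B and SETD1A lie at -0.76 and -0.59 as measured and at 0.14 and 0.24 without the trend, while PHF8 and KMT5A stay below 0 on both axes.

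The widest differences were among the H4K20 and H3K79 methyltransferases. KMT5C (ENSG00000133247, chromosome 19, 55339853 to 55348120, GRCh38, plus strand), which carries H4K20 from the monomethylated to the di- and trimethylated state, had 49 and 41 counts with siRNA 1 and siRNA 2 against 123 in the control library. In FPKM this is 0.288 and 0.245 against 0.787. Both siRNA libraries lay below the control, by -1.28 and -1.58 on the log2 scale. Counting error alone gives 95% intervals of -1.82 to -0.82 and -2.17 to -1.10. The edgeR value was -1.46 ± 0.35 (SE; adjusted p = 0.123), and -0.39 without the GC trend. Its transcript has 66.1% GC, the highest of the 48.

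KMT5B (ENSG00000110066, chromosome 11, 68154863 to 68213828, GRCh38, minus strand) adds the same marks as KMT5C. It had 1277 and 1385 counts with the siRNAs against 706 in the control, or 3.85 and 4.25 FPKM against 2.32 FPKM. This is the opposite direction to KMT5C, with both siRNA libraries above the control. The edgeR value was 0.90 ± 0.22 (SE; adjusted p = 0.124), the highest of the 48, and 0.50 without the GC trend. The ratio of KMT5B to KMT5C in FPKM was 13.4 and 17.3 with the siRNAs and 2.94 in the control. The pair stood 2.36 apart in log2 fold change, and 0.89 apart with the trend removed.

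KMT5A adds the first methyl group to H4K20. It had 625 and 516 counts with the siRNAs against 880 in the control (-0.63 by edgeR; -0.47 without the GC trend). Its 3 processed pseudogenes held 364 and 364 counts with the siRNAs against 288 in the control, so the split of reads between gene and copies is uncertain. With their reads added the value was -0.33. DOT1L, the H3K79 methyltransferase, had 361 and 480 counts with the siRNAs against 685 in the control. Its edgeR value of -0.72 became 0.13 without the GC trend, and 11.5% of its exon bases overlap genes on the opposite strand.

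The RefSeq promoters of KMT5B and KMT5C are shown because these paralogs lie farthest apart in fold change. That of EHMT2 is shown as an example with the E-box CACGTG, the site of MYC and its partner MAX. EHMT2 has the lowest edgeR value, -0.74, of the 10 enzyme genes with this motif, of which 5 lay above and 5 below the control. MYC had 2447 and 2709 counts with the siRNAs against 281 in the control (log2 fold change 3.19 ± 0.24 SE, edgeR adjusted p = 0.0274). Each is the 250 bases before a RefSeq transcript start (GRCh38.p14), in the gene's direction, with CACGTG in capitals. For KMT5B the most upstream of 3 listed starts was used.
KMT5C, chr19:55339626-55339875, plus strand: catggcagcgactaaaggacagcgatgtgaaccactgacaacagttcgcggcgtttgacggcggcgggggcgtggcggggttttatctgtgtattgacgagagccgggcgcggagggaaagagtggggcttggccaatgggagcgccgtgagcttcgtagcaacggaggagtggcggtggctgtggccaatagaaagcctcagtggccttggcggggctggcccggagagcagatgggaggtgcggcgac
KMT5B, chr11:68213649-68213898, minus strand: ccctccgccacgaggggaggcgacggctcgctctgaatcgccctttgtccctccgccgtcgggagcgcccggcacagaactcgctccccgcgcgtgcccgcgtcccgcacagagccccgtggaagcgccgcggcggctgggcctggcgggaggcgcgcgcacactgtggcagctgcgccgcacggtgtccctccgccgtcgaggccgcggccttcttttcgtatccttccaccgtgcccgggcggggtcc
EHMT2, chr6:31897699-31897948, minus strand: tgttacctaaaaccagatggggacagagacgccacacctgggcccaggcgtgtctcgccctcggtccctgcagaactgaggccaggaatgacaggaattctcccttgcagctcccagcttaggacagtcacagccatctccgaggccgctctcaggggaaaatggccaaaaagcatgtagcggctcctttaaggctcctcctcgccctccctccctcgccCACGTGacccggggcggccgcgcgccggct

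The KMT5C window holds 23 CpG dinucleotides, the KMT5B window 39 and the EHMT2 window 16. Promoters were found for 45 of the 48 enzyme genes. CACGTG, which reads the same on both strands, was present in the 250 bases before any listed start in 10 of the 45 (22.2%). It was present in 1221 of 10862 genes tested that have a promoter in the table (11.2%), and genes with several listed starts have more sequence searched. The 10 genes were KMT2D, NSD1, EHMT2, SETDB1, JMJD1C, KDM4B, KDM4C, DNMT3A, TET2 and TET3, of which 5 were above and 5 below the control by edgeR. Their median log2 fold change was 0.0029, against 0.0011 for the 35 without the motif. A match says only that these letters stand in the window.

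The H3K4 methyltransferases lay on both sides of the control, and the genes below it had the GC-richer transcripts. What sets this was not tested. KMT2D, KMT2B, SETD1A and SETD1B were below the control with both siRNAs, KMT2C, KMT2E and SETD7 were above it, and KMT2A differed in sign. SETD1B, a catalytic subunit of the COMPASS complex, had 522 and 589 counts with the siRNAs against 953 in the control. Its edgeR value of -0.79 ± 0.22 (SE) became -0.02 without the GC trend, for a transcript of 61.3% GC. Its paralog SETD1A had 1010 and 1138 counts with the siRNAs against 1605 in the control (-0.59; 0.24 without the trend).

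The KMT2 enzymes are scaffolds of larger complexes that act at promoters and enhancers. KMT2B had 723 and 890 counts with the siRNAs against 1354 in the control (-0.76; 0.14 without the trend). KMT2D, with 2947 and 3328 counts against 4894 in the control, measured -0.65 and had -0.02 left. Its paralog KMT2C had 2708 and 2297 counts with the siRNAs against 2003 in the control (0.31; 0.08 without the trend). SETD7, which adds a single methyl group to H3K4 and to other proteins, had 4487 and 4611 counts with the siRNAs against 3096 in the control. Both siRNA libraries lay above the control, and its edgeR value of 0.55 ± 0.18 (SE) became 0.28. KMT2E, a relative that binds methylated H3K4, had 4828 and 4189 counts with the siRNAs against 3860 in the control (0.22; -0.098 without the trend). KMT2A, the gene rearranged in acute leukaemias, had 2431 counts with siRNA 1 and 3394 with siRNA 2 against 3212 in the control (-0.16; -0.29 without the trend), and 17.9% of its bases overlap another gene on its own strand.

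Among the 5 H3K36 methyltransferases, ASH1L, SETD2 and NSD3 were above the control with both siRNAs. ASH1L, which adds up to the second methyl group, had 1929 and 1758 counts with the siRNAs against 1228 in the control. Its edgeR value was 0.58 ± 0.21 (SE), and 0.30 without the GC trend. SETD2, the enzyme of H3K36 trimethylation in transcribed genes, had 2861 counts with siRNA 1 and 1859 with siRNA 2 against 1673 in the control. The siRNAs gave unequal values, 0.79 with siRNA 1 and 0.11 with siRNA 2, which became 0.42 and -0.17 without the trend. NSD1, NSD2 and NSD3 form a family that adds up to the dimethyl state. NSD3 had 2651 and 2283 counts with the siRNAs against 1789 in the control (0.46; 0.095 without the trend). NSD1 had 3187 and 3858 counts with the siRNAs against 3578 in the control (-0.03; -0.15 without the trend). NSD2, the lowest of the role, had 2443 and 2486 counts with the siRNAs against 2553 in the control (-0.06; -0.27 without the trend).

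In the PRC2 core, which methylates H3K27, EZH2, SUZ12 and EED were above the control with both siRNAs, but the edgeR values of EZH2 and EED were below 0 once the GC trend was removed. SUZ12, the scaffold subunit, had 3447 and 3250 counts with the siRNAs against 2290 in the control. Its value of 0.54 ± 0.20 (SE, edgeR) became 0.05, and its pseudogene SUZ12P1 held 305 and 230 counts with the siRNAs against 213. EZH2 had 4043 and 3581 counts with the siRNAs against 3050 in the control (0.31; -0.019 without the trend, with 0.053 for siRNA 1 and -0.090 for siRNA 2). EED, the subunit that binds the finished mark, has the lowest GC content of the 48, 33.0%, and had 786 and 773 counts with the siRNAs against 581 in the control (0.41; -0.24 without the trend). EZH1, the paralog of EZH2, had 477 and 445 counts with the siRNAs against 486 in the control (-0.08; -0.0067 without the trend).

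The H3K9 methyltransferases were lower in 4 genes and higher in 2 with both siRNAs. SUV39H1, which trimethylates H3K9 in heterochromatin, had 377 and 474 counts with the siRNAs against 733 in the control. Its edgeR value of -0.80 ± 0.24 (SE) became -0.27 without the trend, and 20.3% of its bases overlap a gene on the opposite strand. Its paralog SUV39H2 had 530 and 560 counts with the siRNAs against 605 in the control, at -0.16 as measured and -0.55 without the trend. That is the single enzyme gene under an unadjusted p of 0.05 on the lower side after removal.

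EHMT2 and EHMT1 form the G9a-GLP pair that dimethylates H3K9. EHMT2 had 451 and 566 counts with the siRNAs against 844 in the control (-0.74; -0.0060 without the trend). EHMT1 had 830 and 1043 counts with the siRNAs against 1256 in the control (-0.44; -0.18 without the trend). SETDB2 had 863 and 840 counts with the siRNAs against 584 in the control, a value of 0.54 ± 0.23 (SE, edgeR) that became 0.11. SETDB1, which silences retroelements with TRIM28, had 615 and 619 counts with the siRNAs against 596 in the control (0.04; 0.14 without the trend), and its value was -0.060 when scaled by total counts. It shares 13.4% of its bases with CERS2 on the opposite strand.

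Both LSD demethylases were above the control with both siRNAs, and KDM1B turned to -0.020 without the GC trend. KDM1A, which removes H3K4 methylation in the CoREST complex, had 2748 and 2778 counts with the siRNAs against 2038 in the control. The edgeR value was 0.43 ± 0.19 (SE). It was 0.53 without the trend, larger than as measured. KDM1B, its relative, had 1202 and 1158 counts with the siRNAs against 918 in the control (0.35; -0.020 without the trend).

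Of 13 JmjC demethylases, 7 were above and 4 below the control with both siRNAs. KDM7A and PHF8, of the family that removes repressive marks such as H3K9 dimethylation, were the pair next in width after KMT5B and KMT5C. KDM7A had 2290 and 2774 counts with the siRNAs against 1758 in the control (0.51; 0.05 without the trend). PHF8 had 647 and 810 counts with the siRNAs against 1170 in the control. The edgeR value of PHF8 was -0.70 ± 0.23 (SE), with -0.49 left, and the pair stood 1.21 apart as measured and 0.53 apart after removal.

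The siRNAs did not give the same value for every demethylase. KDM6B, which removes H3K27 methylation, had 931 counts with siRNA 1 and 474 with siRNA 2 against 795 in the control. It lay above the control with siRNA 1 (0.25) and below it with siRNA 2 (-0.78). KDM4B, a demethylase of H3K9 and H3K36, had 134 counts with siRNA 1 and 287 with siRNA 2 against 310 in the control. It was -1.18 with siRNA 1 and -0.15 with siRNA 2. These are the 2 enzyme genes at least 2-fold apart between siRNA 1 and siRNA 2, against 6.56% of all genes tested, and they were singled out after their values were seen. The edgeR values were -0.18 for KDM6B and -0.58 for KDM4B, and 0.70 and 0.15 without the GC trend. Per siRNA, KDM6B then stood at 1.20 with siRNA 1 and -0.06 with siRNA 2, and KDM4B at -0.31 with siRNA 1 and 0.51 with siRNA 2. Counting error on the log2 difference of siRNA 1 and siRNA 2 gives 95% intervals of 0.87 to 1.19 for KDM6B and -1.35 to -0.74 for KDM4B.

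The remaining JmjC genes lay between -0.27 and 0.36 in the edgeR fit. KDM2A, which removes H3K36 dimethylation at CpG islands, had 5105 and 5035 counts with the siRNAs against 4452 in the control (0.18; 0.32 without the trend). Its paralog KDM2B had 250 and 353 counts with the siRNAs against 359 in the control (-0.27; 0.27 without the trend). KDM3A, KDM3B and JMJD1C are the family tied to H3K9 demethylation. KDM3A had 1354 and 1729 counts with the siRNAs against 1249 in the control (0.29; -0.043 without the trend). KDM3B had 2862 and 3543 counts with the siRNAs against 3215 in the control (-0.02; 0.067 without the trend). JMJD1C had 2209 and 2089 counts with the siRNAs against 1660 in the control (0.36; -0.072 without the trend). No edgeR value of this family was beyond 0.1 in size once the trend was removed. Per siRNA, KDM3A then stood at -0.25 with siRNA 1 and 0.14 with siRNA 2, and KDM3B at -0.046 and 0.17. JMJD1C stood at -0.056 and -0.085 in the same order.

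KDM5A and KDM5B remove H3K4 methylation, and both measured above 0 and were below it without the trend. KDM5A had 2665 and 2585 counts with the siRNAs against 2284 in the control (0.19; -0.13 without the trend). KDM5B had 549 and 599 counts with the siRNAs against 527 in the control (0.11; -0.15 without the trend). KDM4A and KDM4C, like KDM4B, act on H3K9 and H3K36. KDM4A had 1059 and 1024 counts with the siRNAs against 1093 in the control (-0.08; 0.010 without the trend), and 40.2% of its bases overlap another gene on its own strand. KDM4C had 451 and 531 counts with the siRNAs against 407 in the control (0.26; 0.14 without the trend).

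The maintenance methyltransferase DNMT1 had 3555 and 3790 counts with the siRNAs against 4591 in the control. Both siRNA libraries lay below the control, at -0.33 ± 0.18 (SE) by edgeR, and at 0.05 without the GC trend. DNMT3A was near the control with 432 and 452 counts with the siRNAs against 461 (-0.07; 0.20 without the trend). DNMT3B had 153 counts with siRNA 1 and 301 with siRNA 2 against 224 in the control. The siRNAs thus lay on either side of the control, at -0.53 and 0.39, and the edgeR value of 0.00 changed sign with the scaling and was 0.28 without the trend. Counting error gives a 95% interval of -1.21 to -0.63 for the log2 difference of siRNA 1 and siRNA 2.

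TET2 and TET3 were above the control with both siRNAs and TET1 below it. TET3 had 1098 and 1229 counts with the siRNAs against 1030 in the control (0.17; 0.35 without the trend). TET2 had 758 and 675 counts with the siRNAs against 582 in the control (0.29; -0.027 without the trend). TET1, the least abundant TET gene, had 69 and 57 counts with the siRNAs against 72 in the control (-0.20; -0.60 without the trend, the lowest of the 48). Counting intervals at 95% include 0 for TET1 with both siRNAs, -0.54 to 0.45 and -0.90 to 0.15, so a difference as measured was not detectable at this depth.

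Over 25 pairs of paralogs, the gene with the higher fold change had the lower GC content in 19. All 7 pairs at least 0.5 apart on the log2 scale were of this kind. Some genes, such as TET1, enter several pairs, so the pairs are not independent. The counts restate the relation to GC content given above, and no such count was made over all genes. Without the GC trend, 5 pairs were at least 0.5 apart, among them KMT5B and KMT5C, KDM7A and PHF8, and KDM1A and KDM1B. TET1 lay below both TET2 and TET3 there, by -0.57 and -0.95.

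The partners of these enzymes were taken in 8 lists. Over the lists of accessory subunits, readers, related enzymes and methyl donor genes, 82 of 83 genes were tested. None had an adjusted p under 0.05 with edgeR, the smallest being 0.112. An unadjusted edgeR p under 0.05 was reached by 16, 5 higher and 11 lower, against 26% of all genes tested (11.5% higher, 14.5% lower). Their median edgeR log2 fold change was 0.0053. At least 2-fold lower with both siRNAs were 4 genes, all of 62% GC or more, against 5.05% of all genes tested, and none was 2-fold higher, against 4%. WIZ, a zinc finger partner of EHMT1 and EHMT2, had 200 and 314 counts with the siRNAs against 770 in the control (-1.60 ± 0.30 SE by edgeR; -0.65 without the GC trend). MBD3, a subunit of the NuRD remodelling complex, had 608 and 813 counts with the siRNAs against 1829 in the control (-1.38; -0.55 without the trend). HR, a JmjC protein of hair follicle development, had 154 and 153 counts with the siRNAs against 406 in the control (-1.41; -0.37 without the trend). HMG20B, a subunit of the KDM1A complex, had 297 and 376 counts with the siRNAs against 747 in the control (-1.16; -0.14 without the trend). These 4 genes were picked by their size in the same counts, so a second test of them is not separate support. Of the 82 tested, DESeq2, unlike edgeR, called only these 4, where it called 3.28% of all genes. Its adjusted p was 0.0030 for MBD3, 0.012 for WIZ, 0.0493 for HR and 0.0499 for HMG20B.

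By list, the accessory subunits of COMPASS had 3 of 12 genes above and 7 below the control with both siRNAs (median -0.33). Those of PRC2 had 3 of 9 above and 4 below (median 0.0041, with -0.02 for siRNA 1 and -0.26 for siRNA 2). The H3K9 readers and cofactors had 7 of 10 above and 3 below (median 0.25), and the subunits of the KDM1A complex 5 of 9 above and 2 below (median 0.17). DNA methylation cofactors and readers had 8 of 12 above and 3 below (median 0.36). Other SET and PRDM enzymes had 4 of 14 above and 7 below (median -0.05), other JmjC proteins 2 of 9 above and 5 below (median -0.20), and methyl donor genes 4 of 7 tested above and 3 below (median 0.11). Without the GC trend all 8 medians lay between -0.12 and 0.12.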

How the data were processed

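The authors deposited read counts and FPKM values for each gene. The authors' FPKM scales counts by gene length and column total: back-calculated lengths were whole within 0.05 bases for 98.7% of 12288 genes that had 50 or more counts in every library. The submitters' processing notes name Bowtie 0.12.2, mm8 and GRCh38. Coordinates equal those of GENCODE 29 (GRCh38) for 97.5% of 58039 genes. The counting program and its treatment of strand and of multiply matched reads are not stated in the labels or the table, so overlapping genes cannot be told apart by strand. The labels' protocol names a TruSeq RNA kit. Depth was 17589502 to 19130768 counts a library.

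Counts were tested with edgeR 4.0.16 (R 4.3.3): glmQLFit and glmQLFTest after TMM scaling and filterByExpr (minimum count 10), on both DUOX2 siRNA libraries against the control, and Benjamini-Hochberg adjustment over 17263 genes with a threshold of 0.05. Residual degrees of freedom were 1, with 4.66 from the prior. The test was checked on simulated data with a common dispersion and no GC trend, so the check does not cover data with such a trend. With so few libraries the test has little power, and a gene that was not called may still differ. Values per siRNA are differences of TMM-scaled log2 CPM with a prior count of 2 and have no replicate check. GC content is that of the longest GENCODE 29 transcript, known for 99.5% of genes. Its trend was fitted by lowess (fraction 0.3) over all genes. For edgeR values the trend of each library was removed as offsets. For values per siRNA the trend of that siRNA's log2 fold changes was subtracted. Intervals are exact binomial ones at 95%, cover counting error only, and treat reads as independent molecules, which reads without molecular identifiers are not. Promoters come from RefSeq. Alternatives were DESeq2 1.42.0, limma 3.58.1 on log2(FPKM + 1), other scalings, filters, thresholds and left-out libraries. The members, lists and alternatives were chosen with earlier results of these data known, except the addition of pseudogene reads, which was chosen after seeing these tables. Values in every library are given for genes at least 2-fold from the control with both siRNAs or with an adjusted p under 0.10, the highest and lowest gene of each role, and paralog pairs; others named beyond this were chosen after their values were seen. Of the partner genes, those at least 2-fold with both siRNAs and with at least 50 counts in a library are named. Totals over the retina markers are not reported here.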

Additional observations from a re-analysis of the deposited data

How the results depend on the processing

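No enzyme gene was called under any alternative that ran a test, though DESeq2 gave no adjusted p for KMT5C and TET1. Over all genes, edgeR called 0 without a filter, 0 with a minimum of 1 CPM and 0 with the GC trend removed, limma on FPKM called 0, DESeq2 called 567 (263 higher, 304 lower), and an adjusted p under 0.10 gave 63 (27 higher, 36 lower), against 10 as reported. Enzyme genes at an unadjusted p under 0.05 numbered 3 without the GC trend and 9 (6 higher, 3 lower) in a fit of protein-coding genes without exon overlap, which changes biotype and overlap together. That fit held only part of the 48, 25 with the sign as reported and 1 with it turned. Its count and its directions thus have a smaller base than the 14 of 48. Under total count scaling enzyme genes at that p numbered 11 (1 higher, 10 lower). For the protein-coding fit and total count scaling the share of all genes at that p was not counted. Genes at least 2-fold with both siRNAs numbered 2664 without a filter, 900 at 1 CPM, 818 without the GC trend (576 higher, 242 lower), 396 among protein-coding genes without overlap (82 higher, 314 lower) and 4588 at 1.5-fold, against 1562 (691 higher, 871 lower). With siRNA 1 left out they numbered 2311 and with siRNA 2 left out 3523. Enzyme genes past that size numbered 0 without the GC trend, 7 at 1.5-fold (1 higher, 6 lower), and 1 to 2 with a library left out. The cause of these shifts was not tested. The median of the 48, taken over the mean of both siRNAs, was -0.03. It was -0.13 under total count scaling, 0.023 without the GC trend, 0.18 over the enzyme genes without overlap in the protein-coding fit, and 0.028 to 0.075 with a library left out. The edgeR coefficient is another measure. By it the median of all genes was 0.01 as reported and -0.09 under total count scaling, and that of the 48 was -0.01 as reported.

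Signs turned in 19 enzyme genes without the GC trend, for KMT2B to 0.14, KMT2E -0.098, SETD1A 0.24, EZH2 -0.019, EED -0.24, DOT1L 0.13, KDM1B -0.020, KDM2B 0.27, KDM3A -0.043, KDM3B 0.067, JMJD1C -0.072, KDM4A 0.010, KDM4B 0.15, KDM5A -0.13, KDM5B -0.15, KDM6B 0.70, DNMT1 0.051, DNMT3A 0.20 and TET2 -0.027. SETDB1 turned to -0.060 under total count scaling and to -0.044 and -0.058 on log2(FPKM + 1) and log2(FPKM + 0.1). KDM3B turned to 0.026 in the fit of protein-coding genes without overlap. DNMT3B turned to -0.087 under total count scaling, -0.0024 with DESeq2 size factors, -0.0045 without a filter, -0.0043 at 1 CPM, -0.0026 with DESeq2, and -0.096 and -0.16 on the FPKM scales. With the reads of pseudogene copies added, 13 enzyme genes had an unadjusted p under 0.05 against 14, and no sign turned. No paired analysis was possible because the control has a single library with no number. Leaving out the control leaves nothing to compare, and leaving out an siRNA library leaves no test. Depth limits most TET1, with at most 72 counts a library, and KMT5C, with at most 123.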
